A study of Rattus norvegicus with 8 samples.

Results

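The nuclear genes that encode the subunits of the mitochondrial respiratory chain and the ATP synthase were followed in the hypothalamus of young rats whose mothers had been calorie restricted. Genes were taken by symbol, as those beginning Ndufa, Ndufb, Ndufc, Ndufs, Ndufv, Uqcr, Cox4, Cox5, Cox6, Cox7, Cox8 or Atp5, together with Sdha, Sdhb, Sdhc, Sdhd and Cyc1, and each was represented by its brightest probe set named for that gene alone. This gave 80 of the 14506 genes so named on the array: 32 of complex I, 4 of complex II, 7 of complex III, 16 of complex IV, 16 of the ATP synthase, 3 complex I assembly factors whose symbols begin Ndufaf, and the 2 pseudogene symbols Cox6c-ps1 and Ndufs6-ps1. Ndufa4 was placed with complex IV, in which its protein is found. A further 41 protein-coding genes of RefSeq that have such symbols, among them Cyc1, Cox6b1, Cox7a1, Ndufa13, Ndufs6, Ndufa4l2 and Uqcr10, had no probe set named for them alone and were not analysed here.

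All animals were female Sprague-Dawley offspring, sampled at 21 days of age, and total hypothalamic RNA was hybridised to Affymetrix Rat Gene 1.0 arrays. The 4 groups had 2 arrays each, lettered A and B. CR-l offspring came from mothers held to 50% calorie restriction from gestational day 11 to day 21 and after birth, and received leptin from postnatal day 2 to day 8. CR-s offspring came from restricted mothers and received saline over those days. Con-l offspring, from normally fed mothers, received leptin, and Con-s offspring, from normally fed mothers, received saline. The design note writes the control leptin group as Con-r and the sample titles write it as Con-l, and the titles were followed. One label field can be read as giving the saline or leptin to the mothers, where the treatment protocol describes it as leptin replenishment in the early postnatal period. The labels do not say whether an array holds 1 animal or a pool, so every p-value below measures only the spread between these arrays, which may be technical. Leptin is the fat-derived hormone that reports energy stores to the hypothalamus, and in newborn rodents a surge of it accompanies the wiring of the feeding circuits.

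The respiratory chain passes electrons from food to oxygen across the inner mitochondrial membrane. Complex I takes them from NADH and complex II from succinate, ubiquinone carries them to complex III, cytochrome c carries them on to complex IV, and the proton gradient built by complexes I, III and IV drives the ATP synthase. Neurons obtain most of their ATP in this way, and the subunits followed here are made in the cytosol and imported, while a few core subunits of every complex but complex II are encoded in mitochondrial DNA and are not among them.

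Median intensity per array lay between 111.8 and 114.1, and the correlation between the arrays of a group, taken over genes on the log2 scale, lay between 0.9947 and 0.9955. The B array of CR-s stood apart, with an interquartile range over genes of 2.92 on the log2 scale against 3.01 to 3.08 on the other 7 arrays. Hypothalamic markers were present, with mean intensities of 2447 for Oxt, 2416 for Pmch and 980 for Avp. Agrp had a lower signal of 236, and Pomc, at 81.9, lay below the median intensity of every array. All differences below are of log2 intensity, so that 1 unit is a 2-fold change, and a gene passed when limma's moderated test gave a p under 0.05 after Benjamini-Hochberg adjustment over all 14506 genes.

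The subunit transcripts were close to level across the 8 arrays. The highest minus the lowest array had a median of 0.19 log2 units over the 80 genes, against 0.28 over all genes. In 33 of the 80 genes this range was under 0.15, which is 41.2% against 11.6% of all genes, and in 11 it was over 0.4, which is 13.8% against 25% of all genes. The signal of the 80 was also higher, with a median of 10.44 log2 units against 7.448 over all genes, and the part of signal in their narrower ranges was not tested. Sdhc, a membrane anchor of complex II, lay between 11.87 and 11.91 on all 8 arrays. Atp5mc3, 1 of 3 genes for the membrane ring subunit c of the ATP synthase, lay between 11.64 and 11.69. Ndufb2, an accessory subunit of the membrane arm of complex I, had the widest range at 0.65, from 7.73 on the B array of CR-l to 8.38 on the A array of Con-l.

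**Figure D1:**
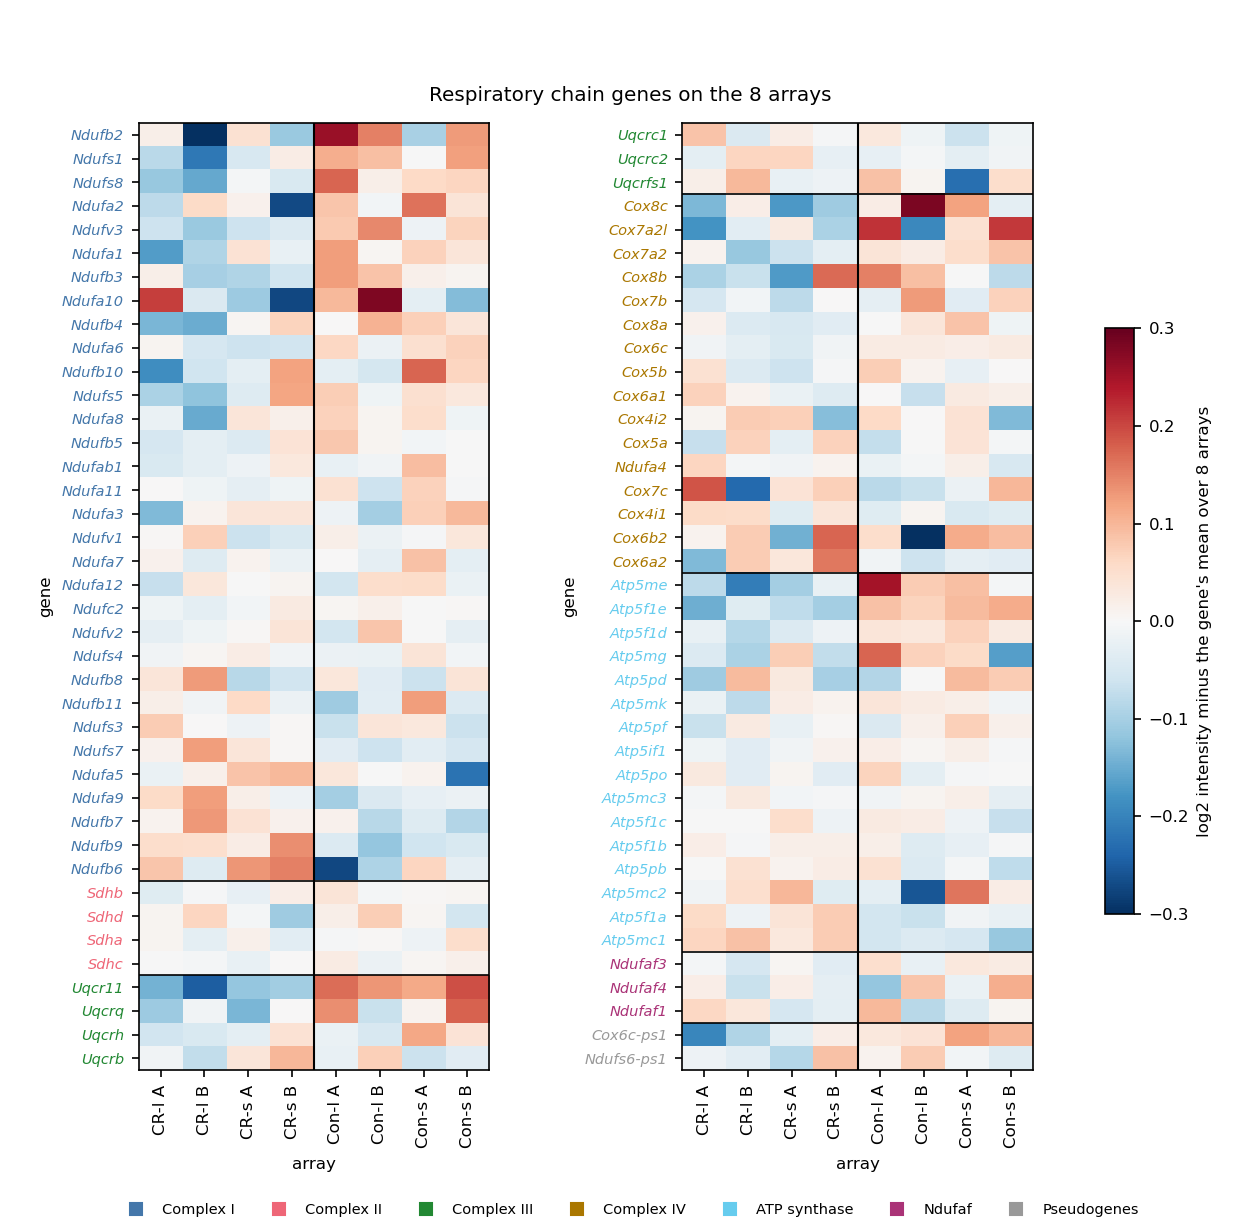
Log2 intensity of each of the 80 genes minus that gene's mean over the 8 arrays. Genes are in rows grouped by complex, and the 8 arrays are in columns ordered CR-l, CR-s, Con-l and Con-s. The colour scale is in log2 units and saturates at 0.3 in either direction. Most cells are near 0, and Uqcr11 in complex III is low on all 4 CR arrays.

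Calorie restriction was compared over the leptin and saline groups together, as the mean of CR-l and CR-s minus the mean of Con-l and Con-s. Of the 80 genes 1 passed, Uqcr11, and it fell, while 1.21% of all genes passed and 0.882% passed as lower. The 80 differences had a median of -0.021, against 0.0006 over all genes, and 49 of them were below 0 and 31 above, where 49.7% of all genes were below 0. At an unadjusted p under 0.05 there were 14 of the 80, which is 17.5% against 15.8% of all genes, 11 of them lower (9.04% of all genes) and 3 higher in CR (6.71% of all genes). The whole set therefore lay within a span from -0.30 to 0.16, and the share of it called was near that of all genes. In bulk tissue fewer cells of a type and less RNA per cell cannot be told apart, which holds for each difference below.

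Uqcr11, a small subunit of complex III, had log2 values of 12.02 and 11.91 in CR-l, 12.04 and 12.05 in CR-s, 12.33 and 12.29 in Con-l, and 12.27 and 12.35 in Con-s. All 4 CR arrays were below all 4 Con arrays, with both CR-l arrays below both CR-s arrays, while Con-l and Con-s overlapped. CR averaged 12.01 ± 0.07 and Con 12.31 ± 0.04 (SD over the 4 arrays of each diet), a difference of -0.30 (SE 0.05, 95% interval -0.41 to -0.20), or a ratio of 0.81, with a limma adjusted p of 0.0336. The difference was -0.34 between the leptin groups (SE 0.06, adjusted p = 0.10) and -0.26 between the saline groups (SE 0.06, adjusted p = 0.364), so that neither pair of groups alone passed. The call needed all 8 arrays: leaving out any 1 of them, of any group, kept the difference between -0.278 and -0.331 with adjusted p-values of 0.081 to 0.136, and without the B array of CR-s, which stood apart, it was -0.307 with an adjusted p of 0.104. It was also lost when all 29215 probe sets were tested together (adjusted p = 0.101) and with the letters A and B as a replicate block (adjusted p = 0.0653). RefSeq lists a second gene, Uqcr11l1, with no probe set named for it alone, and whether its transcripts bind the Uqcr11 probes was not tested.

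**Figure D2:**
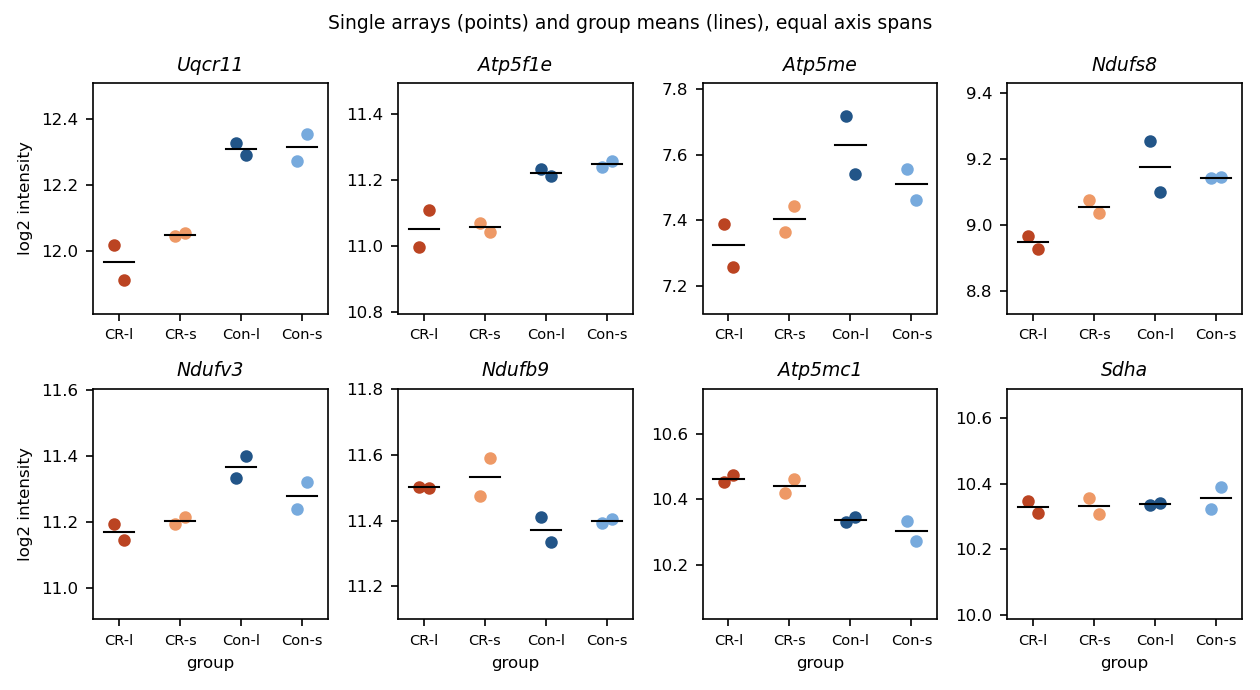
Log2 intensity on each array (points) and the group mean (line) for named subunits, with the groups ordered CR-l, CR-s, Con-l and Con-s. Uqcr11 is the panel in which all CR points lie below 12.1 and all Con points above 12.2, while Sdha stays between 10.31 and 10.39.

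Markers of several cell types differed with diet in the same arrays, where 1.21% of all genes passed and 15.8% had an unadjusted limma p under 0.05. All 11 oligodendrocyte markers measured were lower in CR and 4 passed (Enpp2, Ermn, Cnp and Ugt8), and their summed intensity was 37090 to 40250 over the CR arrays and 43440 to 46930 over the Con arrays. All 7 meningeal markers were lower and 3 passed (Ogn, Slc6a13 and Col1a2), with sums of 1784 to 2053 in CR and 2448 to 3515 in Con. All 4 red blood cell markers measured fell and all 4 passed (Alas2, Slc4a1, Ahsp and Hbb), with sums of 836 to 1325 in CR and 2220 to 3497 in Con. Of 7 mural cell markers 6 were lower and 2 passed (Tagln and Rgs5), with sums of 3435 to 3678 in CR and 3969 to 4230 in Con. Of 8 astrocyte markers 5 were lower and 1 passed (Gfap, -0.94), with sums of 20840 to 22200 in CR and 22120 to 23120 in Con. Of 4 choroid plexus and ependymal markers 2 were lower and 1 passed (Kcnj13), with sums of 426 to 467 in CR and 477 to 539 in Con. Kcnj13 differed by -1.17, while Foxj1 differed by -0.01, Ttr by 0.04 and Folr1 by 0.08, so the list did not fall as a whole. None of the 7 microglial markers passed by limma and 1 had an unadjusted p under 0.05, and none of the 6 endothelial markers passed, with 0 at that p. Of 12 neuronal markers 9 were higher in CR and 3 lower, none passed by limma and 2 had an unadjusted p under 0.05, with sums of 33610 to 34420 in CR and 32360 to 33880 in Con. Of 12 hypothalamic markers 8 were higher in CR and 4 lower. Npy (0.75) and Agrp (0.70) passed as higher, and Oxt (-0.38) passed as lower. The sums of this list were 9120 to 9560 in CR and 8716 to 11000 in Con. No marker list had a summed intensity at 0. The part of these cell types in the difference of Uqcr11, or of any gene below, was not tested.

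Complex I, the largest complex, had 21 of its 32 genes lower in CR and 11 higher, and none passed. The median was -0.03 and the span ran from -0.22 (Ndufb2) to 0.16 (Ndufb6). Ndufs8, an iron-sulfur subunit that hands electrons towards ubiquinone, had values of 8.97 and 8.93 in CR-l, 9.08 and 9.03 in CR-s, 9.25 and 9.10 in Con-l, and 9.14 and 9.15 in Con-s. The CR arrays did not overlap the Con arrays, the difference was -0.16 (SE 0.05), and the adjusted p was 0.182. Ndufs1, the large iron-sulfur subunit of the NADH-oxidising module, averaged 10.10 ± 0.10 in CR and 10.26 ± 0.06 in Con, a difference of -0.16 (SE 0.05, adjusted p = 0.205). Its highest CR array, at 10.20, exceeded its lowest Con array, at 10.18. Ndufv3, a flavoprotein subunit of the same module, averaged 11.19 ± 0.03 in CR and 11.32 ± 0.07 in Con without overlap (difference -0.14, SE 0.04, adjusted p = 0.195). A second, dimmer probe set named for Ndufv3 averaged 8.78 in CR and 8.72 in Con, a difference of 0.06 (SE 0.10), so the 2 probe sets of this gene went opposite ways.

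The complex I genes with higher values in CR included subunits of both the membrane arm and the matrix arm. Ndufb9, of the membrane arm, had 11.50 and 11.50 in CR-l, 11.47 and 11.59 in CR-s, 11.41 and 11.33 in Con-l, and 11.39 and 11.40 in Con-s, with no overlap between the diets. Its difference was 0.13 (SE 0.05, adjusted p = 0.224). Ndufb6, also of the membrane arm, averaged 12.36 ± 0.09 in CR and 12.20 ± 0.14 in Con (difference 0.16, SE 0.06, adjusted p = 0.234), and here the diets overlapped. Ndufa9 and Ndufs7, both of the matrix arm near the ubiquinone site, were higher without overlap by 0.09 each, with adjusted p-values of 0.337 and 0.393. Ndufb3, Ndufa1 and Ndufb4, other accessory subunits of the membrane arm, differed by -0.12, -0.12 and -0.11, each at an unadjusted p under 0.05 and none past adjustment. Ndufs4, which helps attach the NADH-oxidising module, and Ndufc2, of the membrane arm, moved over all 8 arrays by 0.06 each.

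Complex II, which is also the succinate dehydrogenase of the tricarboxylic acid cycle, had a median range over the 8 arrays of 0.08, against 0.23 for complex I. Its 4 differences with diet lay between -0.021 and -0.014, with SEs of 0.04 to 0.05. Sdha, the flavoprotein that oxidises succinate, had 10.35 and 10.31 in CR-l, 10.36 and 10.31 in CR-s, 10.33 and 10.34 in Con-l, and 10.32 and 10.39 in Con-s. Sdhb, the iron-sulfur subunit, averaged 9.71 ± 0.03 in CR and 9.73 ± 0.02 in Con, and the anchors Sdhc and Sdhd differed by -0.01 and -0.02. All of these overlapped between diets, and the 95% interval of each of the 4 lay within a 1.2-fold change.

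Complex III, apart from Uqcr11, had 6 genes between -0.13 and 0.04. The core proteins Uqcrc1 and Uqcrc2 differed by 0.03 (SE 0.05) and 0.04 (SE 0.04), and the Rieske iron-sulfur protein Uqcrfs1 by 0.04 (SE 0.07). Uqcrb, a ubiquinone-binding subunit, was read by 3 probe sets, each with a difference of 0.02. Uqcrq, a small subunit next to Uqcrb, averaged 10.59 ± 0.07 in CR and 10.72 ± 0.11 in Con, with a difference of -0.13 (SE 0.07, adjusted p = 0.427). Uqcrh, the hinge protein that meets cytochrome c, differed by -0.04 (SE 0.04, adjusted p = 0.674).

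Complex IV, cytochrome c oxidase, had 8 genes lower and 8 higher in CR, with a median of -0.01. Several of its subunits come as tissue isoforms. Cox4i1, the widely used form of the regulatory subunit, averaged 11.37 ± 0.04 in CR and 11.31 ± 0.02 in Con (difference 0.06, SE 0.04), and Cox4i2, the form known from lung, differed by 0.01 (SE 0.06). Cox6a1 differed by 0.01 (SE 0.04) and its heart and muscle form Cox6a2 by 0.07 (SE 0.06). Cox7a2 averaged 12.21 ± 0.05 in CR and 12.31 ± 0.03 in Con without overlap, a difference of -0.10 (SE 0.05, adjusted p = 0.348), and a second probe set gave -0.09. Cox7a2l, a related protein that joins complexes III and IV, differed by -0.14 (SE 0.10), with values from 11.07 to 11.48 within Con-l alone. Cox6c also lay lower without overlap, by 0.05 (12.98 ± 0.02 in CR and 13.03 ± 0.00 in Con, adjusted p = 0.594). Cox4i2, Cox8b, Cox8c and the testis form Cox6b2, with the pseudogene symbol Cox6c-ps1, were the 5 of the 80 whose mean lay below the median signal of the arrays. Cox8c, at 5.37 ± 0.08 in CR and 5.56 ± 0.14 in Con, had the lowest unadjusted p of complex IV (difference -0.20, SE 0.07, adjusted p = 0.265). Ndufa4 differed by 0.03 (SE 0.04).

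The ATP synthase had 9 of its 16 genes lower in CR and 7 higher, with a median of -0.02, and none passed. Atp5f1e, the epsilon subunit of the central stalk, had 10.997 and 11.11 in CR-l, 11.07 and 11.04 in CR-s, 11.23 and 11.21 in Con-l, and 11.24 and 11.26 in Con-s. The diets did not overlap, and the difference was -0.18 (SE 0.04, adjusted p = 0.11). Atp5f1e passed only with limma's trend and robust options set together (adjusted p = 0.0071), as Ndufb9, Ndufv3 and Atp5mc1 then did too, or where the test was kept to the upper 60% of genes by signal (adjusted p = 0.0341). Atp5me, the membrane subunit e at the interface of synthase dimers, had 7.39 and 7.26 in CR-l, 7.37 and 7.44 in CR-s, 7.72 and 7.54 in Con-l, and 7.56 and 7.46 in Con-s. It was lower by 0.20 (SE 0.06, adjusted p = 0.167), and its highest CR array was 7.44 against a lowest Con array of 7.46. Atp5f1d, the delta subunit of the same central stalk as Atp5f1e, also did not overlap, at 12.69 ± 0.03 in CR and 12.77 ± 0.02 in Con (adjusted p = 0.382).

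The 3 genes for subunit c, which encode the same mature protein, did not share a difference. Atp5mc1 had 10.45 and 10.47 in CR-l, 10.42 and 10.46 in CR-s, 10.33 and 10.35 in Con-l, and 10.34 and 10.27 in Con-s, higher in CR without overlap by 0.13 (SE 0.04, adjusted p = 0.185). Atp5mc2 differed by 0.05 (SE 0.07) and Atp5mc3 by 0.01 (SE 0.04). The catalytic beta subunit Atp5f1b, at 12.13 ± 0.01 in CR and 12.11 ± 0.03 in Con, and the inhibitor Atp5if1, which blocks ATP hydrolysis by the reversed enzyme, at 11.22 ± 0.02 in CR and 11.24 ± 0.01 in Con, overlapped between diets.

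The assembly factors caught by the symbol rule, Ndufaf1, Ndufaf3 and Ndufaf4, which build complex I but are not part of it, differed by 0.01, -0.04 and -0.03. Of the pseudogene symbols, Ndufs6-ps1 differed by -0.02, and Cox6c-ps1 averaged 5.34 ± 0.09 in CR and 5.48 ± 0.04 in Con without overlap (difference -0.15, SE 0.04, adjusted p = 0.17).

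**Figure D3:**
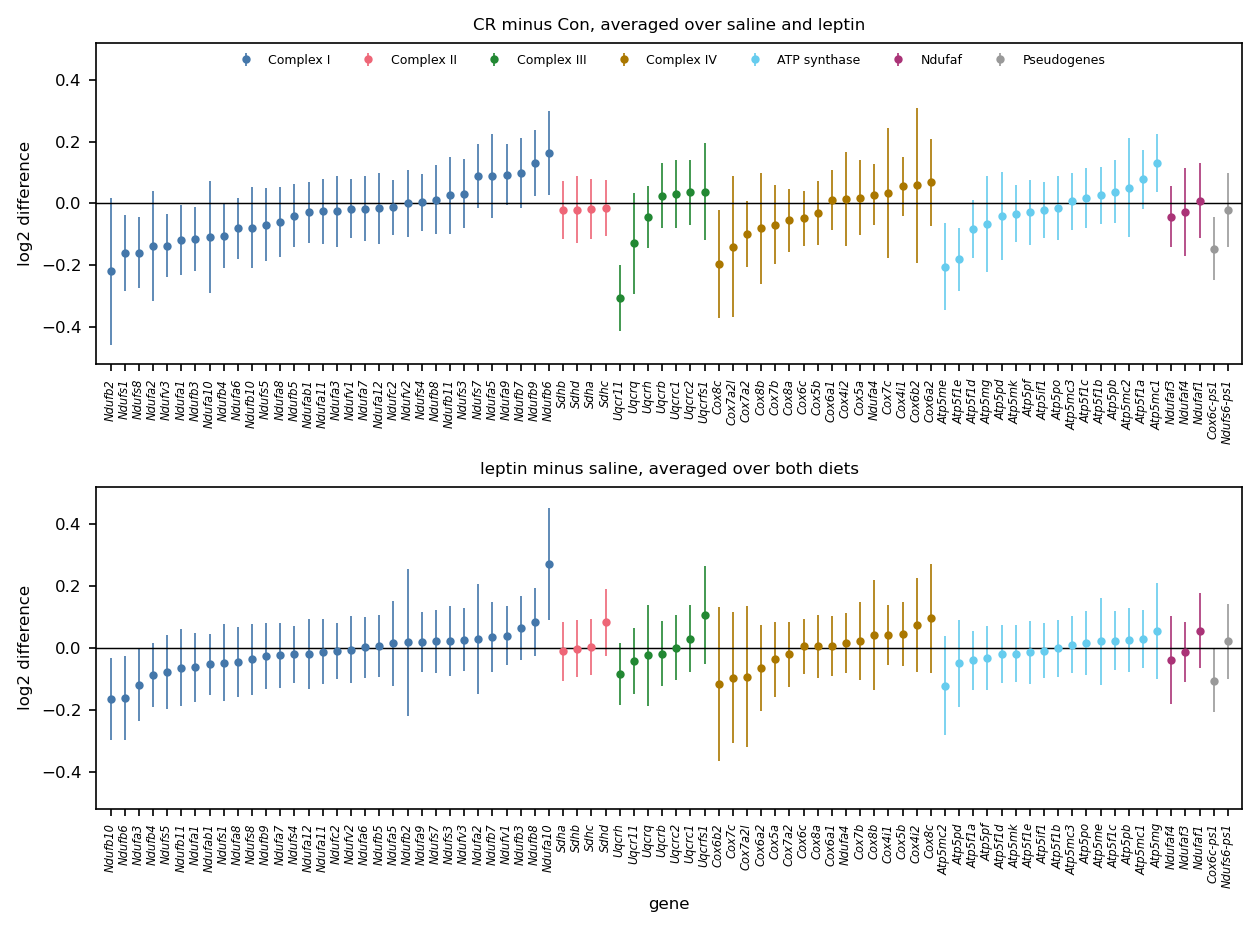
Log2 difference CR minus Con, averaged over leptin and saline, with its 95% interval for each of the 80 genes, grouped by complex. The points span -0.30 (Uqcr11) to 0.16 (Ndufb6), and most intervals cross 0.

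The 4 CR arrays were all above or all below the 4 Con arrays in 13 of the 80 genes, which is 16.2% against 11.2% of all genes. These were 9 lower in CR (Ndufs8, Ndufv3, Uqcr11, Cox7a2, Cox6c, Atp5f1e, Atp5me, Atp5f1d and Cox6c-ps1), 11.2% against 6.67% of all genes, and 4 higher (Ndufb9, Ndufa9, Ndufs7 and Atp5mc1), 5% against 4.52%. The 95% interval of the diet difference lay within a 1.2-fold change either way for 67 of the 80, which is 83.8% against 69% of all genes. The half-width of the interval, which is not adjusted for the number of genes tested, had a median of 0.106 log2 units over the 80. At that width a smaller difference leaves 0 inside its interval. The adjusted threshold asks for more, as the larger differences of Atp5f1e and Atp5me did not pass it.

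Diet was also compared within each treatment, in sets of arrays that do not overlap. Between CR-l and Con-l none of the 80 passed by limma, where 0.0207% of all genes did, and 12 had an unadjusted p under 0.05 against 14.2% of all genes. The largest of the 80 differences was that of Ndufb2, at -0.39, which averaged 7.94 ± 0.29 in CR-l and 8.33 ± 0.08 in Con-l. The lowest p-values were those of Uqcr11, Atp5me (difference -0.31, SE 0.08, adjusted p = 0.19) and Ndufs8 (difference -0.23, SE 0.07, adjusted p = 0.217). Between CR-s and Con-s none passed, as for all genes (0%), and 4 had an unadjusted p under 0.05 against 8.5% of all genes. Uqcr11 was first here too, followed by Atp5f1e (difference -0.19, SE 0.06, adjusted p = 0.457) and Ndufa5, a matrix-arm accessory subunit of complex I, at 0.20 (SE 0.08, adjusted p = 0.579). The sign of the difference was the same in both for 56 of the 80, of which 37 were lower in both and 19 higher in both. That is 70% against 60.5% of all genes, and the correlation of the paired differences was 0.469 over the 80 genes and 0.398 over all genes, given as a description because genes share their arrays. CR-l against Con-s, which reuses arrays of both comparisons, had no gene of the 80 past the threshold (0.0138% of all genes) and 9 at an unadjusted p under 0.05 against 12.2%. Its lowest p-values were those of Uqcr11 (difference -0.35, SE 0.06, adjusted p = 0.135), Cox6c-ps1 (-0.25, SE 0.06, adjusted p = 0.221) and Atp5f1e (-0.19, SE 0.06, adjusted p = 0.306).

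**Figure D4:**
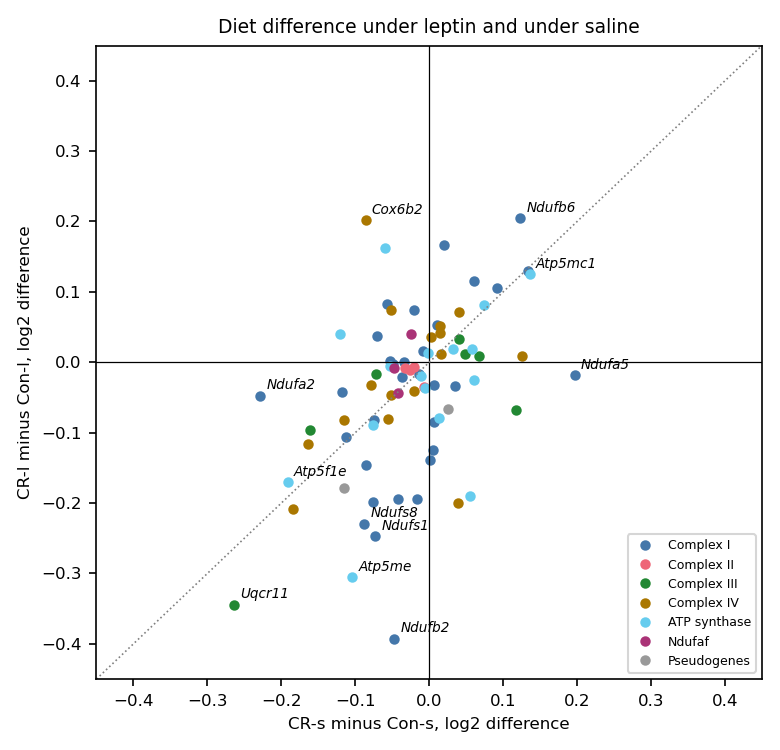
Log2 difference of diet under leptin (CR-l minus Con-l, vertical axis) against that under saline (CR-s minus Con-s, horizontal axis), 1 point per gene coloured by complex. Uqcr11 lies farthest left, at -0.34 under leptin and -0.26 under saline, and 56 of the 80 points have the same sign on both axes.

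Leptin was compared with saline over both diets, as the mean of CR-l and Con-l minus the mean of CR-s and Con-s. None of the 80 passed by limma, as for all genes (0%), and 5 had an unadjusted p under 0.05, against 4.87% of all genes. The median was -0.0045 over the 80 and 0.0033 over all genes, with 38 higher and 42 lower, where 47.8% of all genes were lower. The 95% interval lay within 1.2-fold for 71 of the 80, which is 88.8% against 77.1% of all genes. Arrays of the leptin and saline groups did not overlap for 3 genes, which is 3.75% against 2.37% of all genes: Sdhd was higher (1.27% of all genes) and Ndufb10 and Ndufa3 were lower (1.1%).

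Ndufa10, an accessory subunit of complex I, gave the largest leptin difference of the 80, by the probe set named for it alone. It had 7.40 and 7.15 in CR-l and 7.29 and 7.48 in Con-l, against 7.09 and 6.92 in CR-s and 7.17 and 7.07 in Con-s. The leptin arrays were mostly above the saline ones, with 1 leptin array at 7.15 below the highest saline array at 7.17. The difference was 0.27 (SE 0.08, adjusted p = 0.913), with 0.27 within each diet. A second probe set, named for both Ndufa10 and Ndufa10l1 and not among the 80, went the other way with leptin, by -0.18 (SE 0.05). Ndufb10, of the membrane arm, had 9.60 and 9.73 in CR-l and 9.76 and 9.73 in Con-l, against 9.76 and 9.91 in CR-s and 9.96 and 9.85 in Con-s. The difference with leptin was -0.16 (SE 0.06, adjusted p = 0.913). Ndufb6 differed by -0.16 (SE 0.06) and Ndufa3 by -0.12 (SE 0.05), with the same adjusted p of 0.913. Sdhd, at 9.21 and 9.27 in CR-l and 9.22 and 9.28 in Con-l against 9.20 and 9.10 in CR-s and 9.21 and 9.15 in Con-s, differed by 0.08 (SE 0.05).

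Within CR offspring, leptin against saline gave no gene past the threshold (0% of all genes) and 2 at an unadjusted p under 0.05, against 5.85%. These comparisons were led by Ndufb4 (-0.18, SE 0.06, adjusted p = 0.807), Ndufa10 and Ndufb8 (0.15, SE 0.07, adjusted p = 0.807). Within Con offspring there were again none past the threshold (0%) and 3 at an unadjusted p under 0.05, against 4.19%. Here Ndufb6 (-0.20, SE 0.08), Ndufa10 (0.27, SE 0.11) and Atp5mc2 (-0.23, SE 0.10) led, each with an adjusted p of 0.998. The interaction, the leptin difference in CR minus that in Con, gave none past the threshold (0%) and 0 of the 80 at an unadjusted p under 0.05, against 5.15% of all genes. Its lowest p-values belonged to Uqcrb (-0.18, SE 0.09), Ndufb4 (-0.18, SE 0.09) and Ndufa5 (-0.21, SE 0.12), each with an adjusted p of 0.898. The largest interaction was that of Ndufb2, at -0.35. The intervals of the interaction were wide, and only 32 of the 80 lay within 1.2-fold.

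The other mitochondrial genes examined were 161 assembly factors, carriers, regulators, enzymes and ribosomal proteins. With diet, 1 of them passed, Mrpl54 of the mitochondrial ribosome, which fell by 0.35 on the log2 scale, at 9.93 in CR and 10.28 in Con (SE 0.06, adjusted p = 0.0477). That is 0.621% against 1.21% of all genes, and 27 had an unadjusted p under 0.05, which is 16.8% against 15.8%. The 68 mitochondrial ribosomal proteins had a median of -0.002, with 33 higher and 35 lower. Ppargc1a, the coactivator of mitochondrial biogenesis, averaged 9.60 in CR and 9.35 in Con (difference 0.25, SE 0.05, adjusted p = 0.0642). Of the 14 biogenesis regulators 10 were lower in CR and 4 higher. None passed by limma (1.21% of all genes), and 5 had an unadjusted p under 0.05 (15.8% of all genes). Besides Ppargc1a these were the mitochondrial DNA polymerase Polg (-0.15, SE 0.04), the helicase Twnk (-0.17, SE 0.06), the coactivator Pprc1 (-0.13, SE 0.05) and the mitochondrial RNA polymerase Polrmt (-0.10, SE 0.04). Of the other regulators in that list, Esrrg differed by 0.15 (SE 0.06) and Yy1 by -0.11 (SE 0.05). Nrf1 differed by -0.04 (SE 0.05), Gabpa by 0.00 (SE 0.06) and Esrra by -0.02 (SE 0.04). Tfam, which maintains mitochondrial DNA, differed by -0.09 (SE 0.07). Coq7, an enzyme of ubiquinone synthesis, averaged 8.37 in CR and 8.08 in Con (difference 0.29, SE 0.06, adjusted p = 0.0785). Tomm22, a receptor of the import pore, differed by 0.24 (SE 0.05, adjusted p = 0.0767) and Pdk4, a kinase that restrains pyruvate dehydrogenase, by 0.26 (SE 0.06, adjusted p = 0.0915). Taco1, a translation activator for complex IV, differed by -0.20 (SE 0.07, adjusted p = 0.224). Cycs, cytochrome c itself, differed by -0.02 (SE 0.05) and Cs, citrate synthase, by 0.01 (SE 0.04). With leptin, none of the 161 passed (0%) and 6 had an unadjusted p under 0.05, which is 3.73% against 4.87% of all genes.

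Some short sequences were more frequent in the promoters of the subunit genes than in those of all genes tested, a feature that the choice of genes did not use. RefSeq's GRCr8 promoter table, which gives 250 bases before and 50 from the annotated start, held 70 of the 80 genes, and Uqcr11 was not among them. Both strands were searched for 5 short words of factors known to serve respiratory genes or housekeeping promoters. The NRF1 word GCGCNTGCG was in 27.1% of the 70 promoters, against 9.74% of 11955 promoters of genes tested. The ETS word CCGGAAG, read by GABP, was in 30% against 13%, and the YY1 word AAGATGGCG in 11.4% against 2.63%. At least 1 of these 3 words was in 40 of the 70, which is 57.1% against 22.2%. The ERR alpha word TCAAGGTCA was in 2.86% against 0.234%, and the SP1 word GGGGCGGGG in 7.14% against 15.8%. By complex, the NRF1 word was in 7 of 15 ATP synthase promoters, 7 of 30 of complex I and 1 of 13 of complex IV. Words can overlap, as the NRF1 word does with itself on the opposite strand. The 70 promoters had a median of 20 CG pairs, against 16 in the 11955, and a median GC share of 56.7% against 58%. The part of this composition in the word shares was not tested.

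These words stood both in promoters of genes with lower values in CR and in promoters of genes near level. The 4 below are examples of each, 5′ to 3′ on the strand of the gene with matches in capitals: Atp5me (chr14:1464610-1464909, + strand) and Ndufs8 (chr1:210573649-210573948, - strand), whose CR and Con arrays did not overlap, and Sdha (chr1:30764303-30764602, + strand) and Uqcrc1 (chr8:118467973-118468272, + strand), whose differences were -0.02 and 0.03.
Atp5me: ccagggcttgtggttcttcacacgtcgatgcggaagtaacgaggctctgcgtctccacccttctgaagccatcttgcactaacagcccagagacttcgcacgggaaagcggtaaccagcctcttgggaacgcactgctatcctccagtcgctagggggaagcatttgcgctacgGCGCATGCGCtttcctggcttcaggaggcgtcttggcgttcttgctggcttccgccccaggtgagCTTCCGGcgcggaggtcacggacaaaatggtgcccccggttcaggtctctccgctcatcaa
Ndufs8: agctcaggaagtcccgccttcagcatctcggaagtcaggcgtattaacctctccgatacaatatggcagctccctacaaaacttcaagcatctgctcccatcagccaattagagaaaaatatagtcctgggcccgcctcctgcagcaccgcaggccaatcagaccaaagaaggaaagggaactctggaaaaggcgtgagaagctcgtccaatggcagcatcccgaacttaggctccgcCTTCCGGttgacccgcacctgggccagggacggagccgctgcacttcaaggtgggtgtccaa
Sdha: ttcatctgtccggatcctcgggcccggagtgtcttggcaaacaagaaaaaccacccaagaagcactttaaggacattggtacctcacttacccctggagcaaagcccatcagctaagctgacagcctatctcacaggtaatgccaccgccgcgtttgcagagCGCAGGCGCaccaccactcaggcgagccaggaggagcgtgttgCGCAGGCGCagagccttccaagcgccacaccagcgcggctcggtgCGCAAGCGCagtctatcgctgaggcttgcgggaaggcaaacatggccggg
Uqcrc1: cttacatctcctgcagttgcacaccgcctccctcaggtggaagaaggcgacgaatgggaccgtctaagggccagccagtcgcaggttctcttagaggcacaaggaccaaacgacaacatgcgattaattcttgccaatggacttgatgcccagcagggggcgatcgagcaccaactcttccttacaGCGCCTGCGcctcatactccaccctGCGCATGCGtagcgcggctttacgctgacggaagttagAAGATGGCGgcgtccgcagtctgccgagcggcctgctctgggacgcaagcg

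The capitals in Atp5me mark an NRF1 word that reads on both strands, 76 and 75 bases before the start, and an ETS word on the opposite strand 11 bases before it. Ndufs8 holds an ETS word on the opposite strand 12 bases before the start. Sdha holds 3 NRF1 words on the opposite strand, and Uqcrc1 holds 2 NRF1 words, 64 and 39 bases before the start, and a YY1 word that begins 1 base before it. Over the 40 genes with an NRF1, ETS or YY1 word the diet difference had a median of -0.03, with 26 lower in CR, and over the 30 without it was -0.02, with 17 lower. A match is a description of the letters and not a bound site.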

How the data were processed

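Per the submitters' processing notes and the labels, the authors summarised the Affymetrix Rat Gene 1.0 scans by RMA in Affymetrix Expression Console and deposited 1 intensity value per probe set and array on a linear scale. RMA subtracts background, quantile-normalises the arrays and summarises probes, which narrows differences shared by all probes. No depth applies, and 2 arrays a group limit the precision. The intensities were log2-transformed without an offset and not normalised again. Of 29215 probe sets, 15633 were annotated, 15310 of them with 1 symbol and 323 with several. Symbols were updated through Entrez number (15279) or accession (6), and 25 were kept as on the array. The 80 genes had 92 probe sets, 11 genes having several, and 1 probe set shared by Ndufa10 and Ndufa10l1 was left out. A group-means model was fitted to all 8 arrays with limma 3.58.1 in R 4.3.3 (4 residual and 3.21 prior degrees of freedom, two-sided). The fit was run on simulated data as a check of the code, which does not measure its power for differences of the size found here.

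The genes, the marker and mitochondrial lists and the rule for named genes were chosen with earlier results of these data known. That rule named genes past the threshold, the 3 lowest p-values of each complex and comparison, and the highest and lowest signal. It also named isoform sets, complex II and genes with several probe sets. All other genes were named after their values were seen. Among them were non-overlapping genes, those of widest or narrowest range and further genes at an unadjusted p under 0.05. The promoters printed were also chosen after the values were seen. Alternatives changed the normalisation, centring, variance model, signal filter, genes tested, choice of probe set, arrays in the fit, replicate block, offset, membership and symbols, and left out each array.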

Additional observations from a re-analysis of the deposited data

How the results depend on the processing

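With calorie restriction averaged over both treatments, 1 of the 80 genes passed, and 5 did with limma's trend and robust options set together (Ndufb9, Ndufv3, Uqcr11, Atp5f1e and Atp5mc1), 2 among the upper 60% of genes by signal, which kept 75 of the 80, 0 with all probe sets tested together, and 0 with the letters A and B as a replicate block (Uqcr11 -0.304, adjusted p = 0.0653). Leaving out each array gave 0 to 0. The labels do not say whether the letters pair the arrays. The A minus B differences of 2 groups correlated between -0.061 and 0.109 over genes, which shows no strong shared difference but cannot settle what the letters mean. The block moved no count of the 80 in the other comparisons. All genes passing, 175, became 744 with the trend and robust options, 609 in the upper 60%, 345 with 16 added before the log, 267 with diet alone in the model, 87 with the block, 0 with all probe sets, and 0 to 27 with an array left out. For CR-s against Con-s the trend and robust options gave 1 gene of the 80; for CR-l against Con-l they gave 3, the upper 60% gave 1 and adding 16 gave 1; for CR-l against Con-s they gave 1 and the upper 60% gave 1. Medians over the 80 moved by more than the 0.0108 SD between replicates after centring to -0.016 (leptin over both diets), -0.00548 (diet under saline), -0.0297 (leptin within CR) and -0.0163 (interaction), after cyclic loess to 0.0167 (leptin within Con), and after quantile normalisation to -0.0198 (CR-l against Con-s). Without single arrays they ran from -0.0268 to -0.0102 (diet under saline), -0.0265 to -0.00495 (diet under leptin), -0.018 to 0.00967 (leptin within Con) and -0.0407 to -0.00573 (CR-l against Con-s); the cause was not tested. The diet median was -0.0274 to -0.0158 without single arrays and -0.021 to -0.0124 over the other settings. Of 1143 recomputations of 64 named differences, 1099 kept sign and side of the threshold, 24 turned sign without a call, 10 lost and 10 gained the threshold, and 0 reversed a call. Of the 64 only the diet difference of Uqcr11 had passed, so all 10 losses were of that call. For the rest, keeping the side of the threshold mostly means staying uncalled. The interaction has no value with a single factor in the model.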

Other observations

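The probe set left out because it is named for both Ndufa10 and Ndufa10l1 went against the one named for Ndufa10 alone. It had log2 values of 10.72 and 10.85 in CR-l and 10.76 and 10.72 in Con-l, against 10.90 and 10.93 in CR-s and 10.94 and 11.02 in Con-s, with every leptin array below every saline array. Its leptin difference was -0.18 (SE 0.05) where that of the probe set named for Ndufa10 alone was 0.27 (SE 0.08). The direction of Ndufa10 with leptin therefore depends on the probe set read.

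Of the other genes with several probe sets, the diet differences of the brighter and the dimmer were -0.11 and -0.18 for Ndufb4, -0.07 and -0.08 for Ndufs5, -0.04 and -0.04 for Atp5pd, -0.03 and -0.04 for Atp5mk, and 0.02 and 0.06 for Cox5a. They had opposite signs for Ndufv3, as given above, and near 0 for Atp5mc2 (0.05 and -0.0003), Atp5mc3 (0.0063 and -0.0089) and Ndufs6-ps1 (-0.02 and 0.0064). On the A array of Con-l the summed intensity of markers of muscle and pituitary was 1150, against 592.5 to 658.2 on the other 7 arrays, although the median of the 6 markers there was 0.04 above the Con-s mean. Among these markers Cga had the largest leptin difference over both diets, at 0.88 (SE 0.56), and the others lay between -0.21 and 0.11. The sum of the meningeal markers on that array was 3515, against 1784 to 2702 on the others, and their median was 0.47 above the Con-s mean.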
